A study of Mus musculus with 8 samples.

Results

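The SLC25 family, named Slc25a followed by a number in the mouse, makes up most of the solute carriers of the mitochondrial inner membrane. Its transcripts were measured by RNA sequencing in the quadriceps of 8 mice, all female and 6 months old. Members were all named entries with a symbol of this form and a mean of at least 1 FPKM, the sequenced fragments of a gene scaled by its length and by the size of the library, over the 8 libraries. Of 47 such symbols in the files, 38 reached that mean and 9 did not, among 11878 named genes that did. Only the mean level over all 8 libraries chose the members, so the levels and their order are a description.

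Each library came from 1 mouse. The labels give 4 of them the genotype Mss51-/- (KO) and 4 the genotype wild type (WT), with no agent or other allele, and they do not give the strain or how the deletion was made. Mss51 is a gene of skeletal muscle whose yeast counterpart serves the synthesis of a cytochrome oxidase subunit. Its level was 201 to 340 FPKM in the libraries labelled KO, against 22.9 to 37.0 FPKM in those labelled WT. Each library labelled KO was higher, the opposite of a lost transcript (log2 fold change 3.07, SE 0.20, limma adjusted p = 0.000643). The transcript level alone does not settle the genotype, and the reason for the higher level was not tested. KO and WT here name libraries by their labels alone, and every direction below rests on those labels. Where nothing is said of separate cages or litters, the p-values measure the spread between these 8 mice.

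A rough estimate from low values put the depth at 43.9 to 54.7 M fragments per library. It used only the 103 to 149 genes per library whose values implied 32 to 80 M, so it could not fall outside that window. The muscle markers Ckm (9230 to 12716 FPKM) and Des (809 to 976 FPKM) were high in every library. Tnnt3, a fast troponin that muscle uses, was listed at 0 in KO replicates 1 and 3 and WT replicates 2 and 4, and Myh4, the fast myosin, in every library, so a 0 in these files can be a failed estimate. The summed FPKM of 10 markers of slow and oxidative fibres was 2900 in KO replicate 1 and 6093 to 6689 in the other KO libraries, against 2513 to 3109 in the libraries labelled WT. That sum is mostly Mb, and of the 10 markers 5 (Myh2, Myl2, Myl3, Mb and Pln) had KO replicates 2 to 4 above every WT library and KO replicate 1 inside the WT range. The other 5 (Myh7, Tnnc1, Tnni1, Tnnt1 and Atp2a2) did not. KO replicate 1 stood apart from the other KO libraries in the first 5, and results are given with and without it where it decides them.

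Carriers of this family share a fold of 3 repeated domains and swap one solute for another, or move a solute with protons, across the membrane that the respiratory chain makes tight. They export ATP and take in ADP and phosphate, pass reducing equivalents of NADH in the malate-aspartate shuttle, bring in acylcarnitines for beta-oxidation, and supply cofactors, iron and glutathione. In striated muscle the ADP/ATP carrier Slc25a4 is among the most abundant inner membrane proteins.

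The carriers spanned more than 3 orders of magnitude. Slc25a4, the ADP/ATP carrier of heart and skeletal muscle, averaged 2234 FPKM over the 8 libraries, and Slc25a13, the least abundant member, 1.18 FPKM. Only 4 carriers had a mean over 100 FPKM, which were Slc25a4, the phosphate carrier Slc25a3 (794 FPKM), the aspartate/glutamate carrier Slc25a12 (239.9 FPKM) and the oxoglutarate/malate carrier Slc25a11 (233.9 FPKM). A further 19 lay between 10 and 100 FPKM and 15 below 10 FPKM. These 4 held 87.1 ± 0.652% of the summed carrier FPKM in the libraries labelled KO and 85.9 ± 1.74% in those labelled WT (SD, n = 4 each). The share of Slc25a4 alone was 55.1 ± 2.07% in KO and 55.4 ± 2.02% in WT (SD, n = 4 each). The greater part of the carrier transcript, per length, thus came from a single gene in both groups. The summed carrier FPKM was 3930, 4510, 4489 and 4367 in KO replicates 1 to 4, against 3750, 3727, 3776 and 3830 in WT replicates 1 to 4. As a share of the FPKM of all named genes it was 0.563, 0.653, 0.625 and 0.260% in KO replicates 1 to 4, against 0.604, 0.539, 0.336 and 0.577% in WT replicates 1 to 4. Every KO sum lay above every WT sum, while the shares of the groups overlapped. The FPKM of all named genes summed to 1.68e+06 in KO replicate 4 and 1.12e+06 in WT replicate 3, against 620662 to 718560 in the other libraries. The lowest shares are those of these libraries, whose carrier sums lay within their group.

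**Figure D1:**
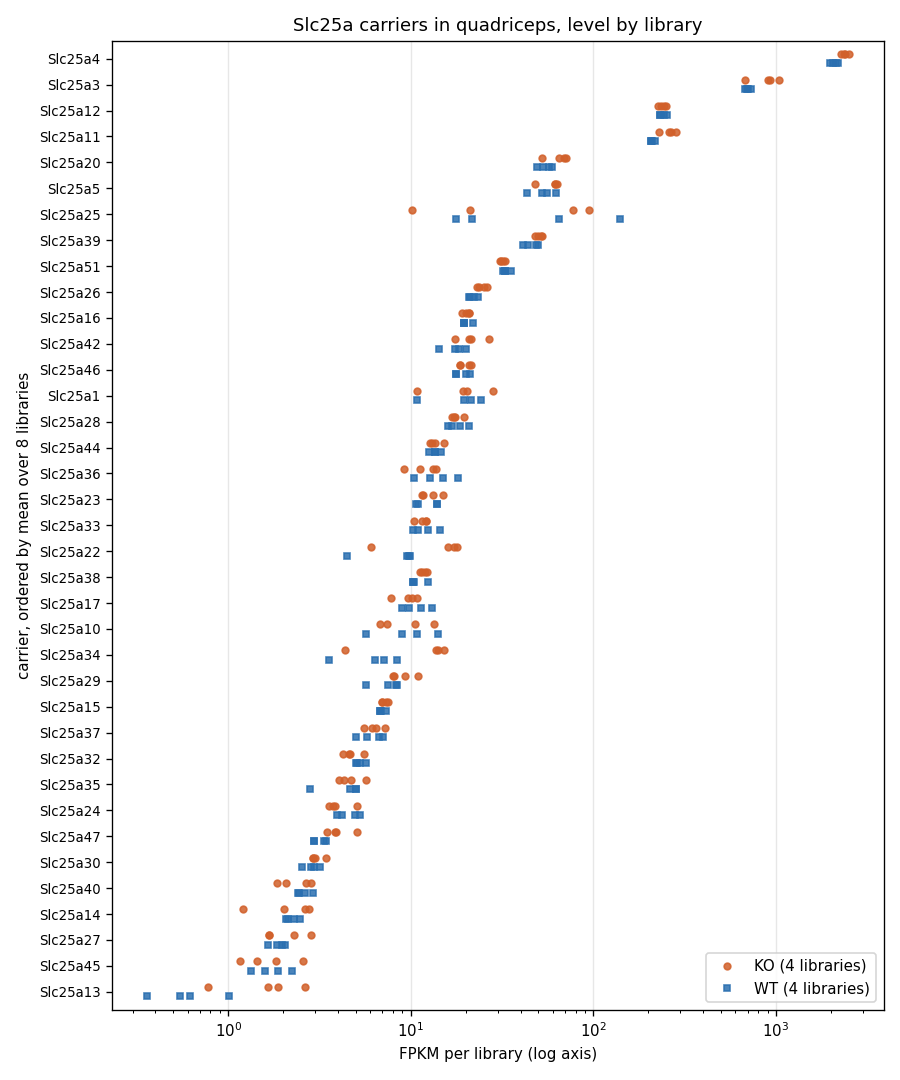
Level of 37 of the 38 carriers in each library (x axis: FPKM, log axis; y axis: carriers ordered by the mean over 8 libraries; orange circles: KO, 4 libraries; blue squares: WT, 4 libraries). Slc25a4 and Slc25a3 stand first and second in every library, while Slc25a25 spreads from 10.1 to 139.8 FPKM.

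The order was fixed at the top and loose below. Slc25a4 and Slc25a3 ranked 1 and 2 in all 8 libraries. Slc25a12 stood above Slc25a11 in 5 libraries, so these neighbours were not separated by the spread, and both stood above Slc25a20 in every library. Of the 37 pairs of neighbours in the order of means, 8 kept their order in all 8 libraries. Slc25a25 moved between ranks 5 and 24, Slc25a1 between 9 and 24, and Slc25a34 between 17 and 31.

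At the minimum, the members just inside were Slc25a13 (mean 1.18 FPKM), Slc25a45 (1.75 FPKM) and Slc25a27 (2.00 FPKM). Just outside were Slc25a53 (0.902 FPKM), Slc25a2 (0.183 FPKM) and Slc25a43 (0.134 FPKM). The other 6 below it were Slc25a21, Slc25a18, Slc25a41, Slc25a48, Slc25a31, the ADP/ATP carrier of the testis, and Slc25a54, which was listed at 0 in every library. Slc25a13 reached the minimum through the KO group, since its WT mean was 0.632 FPKM. That member therefore had to lie higher in KO, and its difference supports nothing on the family.

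The comparison of KO with WT asked whether the loss of Mss51, as labelled, goes with a different level of the carriers. It used limma on log2(FPKM + 0.5) across all 11878 genes with Benjamini-Hochberg adjustment, and every log2 fold change below is KO minus WT on that scale. None of the 38 carriers passed at an adjusted p under 0.05, where 0.0505% of all tested genes did. The smallest adjusted p of a carrier was 0.347, for Slc25a11. At an unadjusted p under 0.05 in limma, 6 carriers were higher in KO (15.8%; 7.5% of all tested genes) and 0 lower (2.76% of all tested genes). The 6 were Slc25a11, Slc25a13, Slc25a3, Slc25a47, Slc25a4 and Slc25a26.

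The log2 fold changes ran from -0.28 to 0.94, and 27 of 38 lay within 0.2 of 0. Their median was 0.06, against 0.02 for all tested genes. Above 0 were 24 carriers, or 63.2%, against 54.4% of all tested genes. Without Slc25a13, which the minimum kept through the KO group, 23 of 37 lay above 0 (62.2%) and 5 were higher at an unadjusted p under 0.05 in limma (13.5%). After rescaling to an equal sum of named genes (TPM), the median of all tested genes moved to -0.18 and that of the carriers to -0.14. After it, 9 carriers lay above 0 (23.7%; 17.9% of all tested genes). The TPM factor was 0.596 for KO replicate 4 and 0.890 for WT replicate 3, against 1.39 to 1.61 for the other libraries. Values after rescaling to TPM thus lean on these libraries. Against this background the counts and medians give no test of the family, and its carriers are described one by one below.

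**Figure D2:**
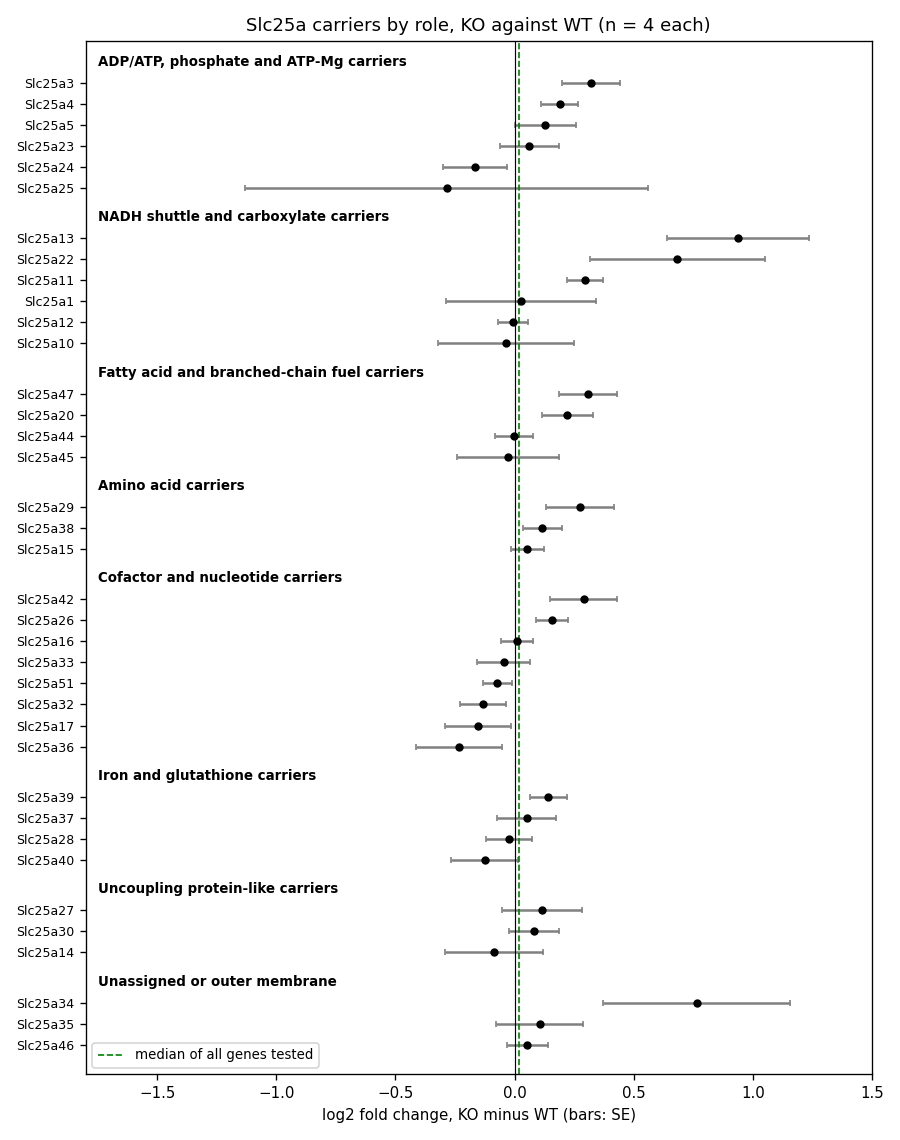
Log2 fold change of 37 of the 38 carriers, KO minus WT (x axis; points: limma estimates, n = 4 per group; bars: SE), grouped by role and ordered within each role. The dashed green line is the median of all genes tested, 0.02. Slc25a13, Slc25a34 and Slc25a22 lie farthest to the right, with wide bars, and none passes the adjusted threshold.

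The ADP/ATP, phosphate and ATP-Mg carriers, which serve ATP synthesis directly, had 6 members, 0 of them past the threshold and 4 above 0 (median log2 fold change 0.10). Slc25a4 (ENSMUSG00000031633, chromosome 8, 46206797 to 46211284 of GRCm38, minus strand) stood at 2270.4, 2400, 2502 and 2349 FPKM in KO replicates 1 to 4, against 1981, 2130.4, 2064 and 2176 FPKM in WT replicates 1 to 4. Each library labelled KO was higher than each labelled WT. Its log2 fold change came to 0.19 (SE 0.08, limma adjusted p = 0.446). It was 0.16 with each library scaled by its median ratio to the mean of all libraries on the log scale. With quantile normalization it was -0.03, and -0.03 after rescaling to TPM, where the SE was 0.43.

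Groups without any overlap, KO above, were found for 3 carriers, or 7.89%, against 3.89% of all tested genes. They were Slc25a4, Slc25a11 and Slc25a47. With KO below there were 0, against 1.61%.

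Slc25a3, the carrier that brings in phosphate for ATP synthase (ENSMUSG00000061904, chromosome 10, 91116574 to 91124059, minus strand), stood at 681, 1033, 905 and 926 FPKM in KO replicates 1 to 4, against 703, 677, 731 and 696 FPKM in WT replicates 1 to 4. KO replicates 2 to 4 lay above every library labelled WT, and KO replicate 1 lay among them. The log2 fold change was 0.32 (SE 0.12, limma adjusted p = 0.431). It was 0.30 with each library scaled by its median ratio, 0.16 with quantile normalization and 0.11 after rescaling to TPM, where the SE was 0.45. Without KO replicate 1 the log2 fold change came to 0.44 (SE 0.08, limma adjusted p = 0.0466). That library was singled out in these same data, and it lay with the WT libraries here, so passing without it is no support. Over all tested genes the calls rose from 6 to 125 on the same removal.

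Motifs were sought in RefSeq promoters of GRCm38.p6, from 250 bases before to 50 bases after each start, for 29 of the 38 carriers. Slc25a3 alone held GCGCANGCGC, the element of NRF1, a factor known for nuclear genes of mitochondria. Of 27025 genes with such a promoter, 5.19% held it on either strand. The motif TNAAGGTCA, bound by the estrogen-related receptors, was in 0 of the 29, against 1.43% of all these genes. The stretch of Slc25a3 that holds the match is shown because it is the only one among the carriers, with the match, read on the opposite strand, in capitals (chr10:91124142-91124201, minus strand).
Slc25a3: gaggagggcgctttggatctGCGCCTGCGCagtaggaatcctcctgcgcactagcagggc
The match begins at position -214 from the start of the RefSeq promoter, which is not the start in the gene coordinates given above. It is a match of letters only.

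Slc25a5, the ADP/ATP carrier of many tissues, stood at 48.0, 63.0, 61.4 and 61.6 FPKM in KO replicates 1 to 4, against 55.8, 43.5, 62.6 and 52.3 FPKM in WT replicates 1 to 4 (log2 fold change 0.13, limma adjusted p = 0.773; -0.08 after rescaling to TPM). The groups overlapped. It has 7 copies in the annotation that are at least 90% identical over 200 bases or more, all listed at or near 0, so how reads were shared among them is uncertain. The ATP-Mg/phosphate carriers, which set the adenine nucleotide pool of the matrix under control of calcium, were Slc25a25, Slc25a23 (11.5 to 15.1 FPKM in KO, 10.7 to 13.9 FPKM in WT) and Slc25a24.

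Slc25a25 was the most variable carrier. It stood at 21.1, 10.1, 94.5 and 77.1 FPKM in KO replicates 1 to 4, against 139.8, 17.7, 65.1 and 21.7 FPKM in WT replicates 1 to 4. High and low libraries occurred in both groups, and the groups overlapped throughout. Its SD within groups on the log2 scale was 1.45, above that of 98.6% of all tested genes, where the median carrier had 0.18. The log2 fold change was -0.28 (SE 0.85, limma adjusted p = 0.936), and its sign turned to 0.30 without KO replicate 2 and 0.27 without WT replicate 1. Its exons overlap those of Naif1 on the opposite strand by 379 bases.

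**Figure D3:**
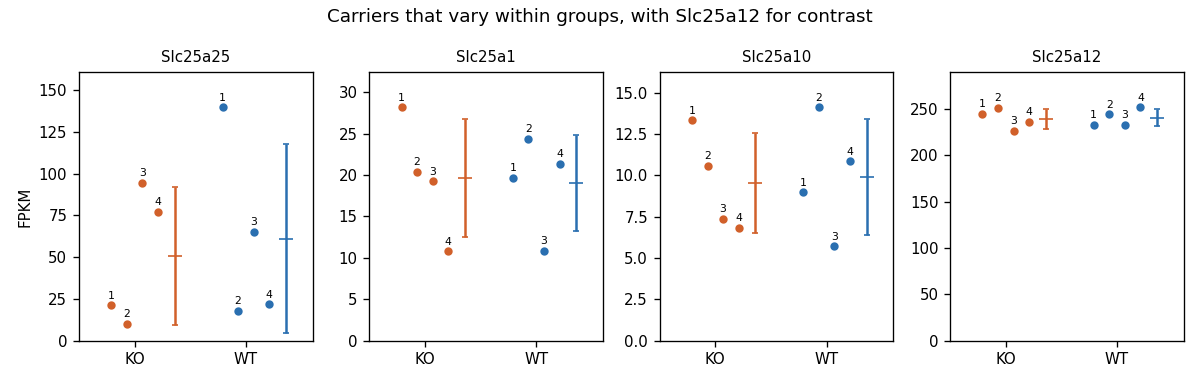
FPKM by library of Slc25a25, Slc25a1 and Slc25a10, with Slc25a12 for contrast (y axis: FPKM from 0; orange: KO, blue: WT; small digits: replicate; bars: mean and SD, n = 4). Slc25a25 ranges from 10.1 to 139.8 FPKM with both groups spread over most of it, while Slc25a12 stays between 226 and 252 FPKM.

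Carriers of the NADH shuttle and of carboxylates had 6 members, 0 past the threshold and 4 above 0 (median 0.16). They include Slc25a13, which the minimum kept through the KO group, so this count and median support nothing on the group. The log2 fold changes of the other members were 0.68 (Slc25a22), 0.30 (Slc25a11), 0.03 (Slc25a1), -0.01 (Slc25a12) and -0.04 (Slc25a10). Slc25a11, which swaps oxoglutarate for malate in the malate-aspartate shuttle (ENSMUSG00000014606, chromosome 11, 70644196 to 70647479, minus strand), stood at 228, 282, 258 and 265 FPKM in KO replicates 1 to 4. In WT replicates 1 to 4 it stood at 217, 209, 206 and 206 FPKM. All 4 libraries labelled KO lay above all 4 labelled WT, which were close to each other (SD 5.07 FPKM, against 22.5 FPKM in KO). The log2 fold change was 0.30 (SE 0.08, limma adjusted p = 0.347), and 0.08 after rescaling to TPM. Without KO replicate 1 it was 0.36 (limma adjusted p = 0.0478). That library was singled out in these same data, so passing without it is no support. Over all tested genes 125 passed without it, against 6 with it. The exons of Slc25a11 overlap those of Rnf167 on the opposite strand by 189 bases, and the strand setting is not given.

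Slc25a12, the calcium-activated aspartate/glutamate carrier of muscle and brain (ENSMUSG00000027010, chromosome 2, 71271063 to 71367749, minus strand), is the partner of Slc25a11 in that shuttle. It stood at 245, 251, 226 and 236 FPKM in KO replicates 1 to 4, against 233, 244, 233 and 252 FPKM in WT replicates 1 to 4. The groups overlapped fully, at 239.5 ± 10.9 FPKM in KO and 240.4 ± 9.18 FPKM in WT (SD, n = 4 each). The log2 fold change was -0.01 (SE 0.06, limma adjusted p = 0.984). Slc25a11 was the higher of these carriers in 3 of 4 libraries labelled KO and in 0 of 4 labelled WT.

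Slc25a13, or citrin, is the aspartate/glutamate carrier of liver (ENSMUSG00000015112, chromosome 6, 6041218 to 6217173, minus strand). It stood at 0.771, 2.63, 1.65 and 1.88 FPKM in KO replicates 1 to 4, against 1.01, 0.360, 0.543 and 0.615 FPKM in WT replicates 1 to 4. KO replicates 2 to 4 lay above every WT library, and KO replicate 1 below WT replicate 1. Its log2 fold change came to 0.94 (SE 0.30), or 1.18 without KO replicate 1, given with no p because of how the minimum kept it. In both groups its level was small beside that of Slc25a12.

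Slc25a22, a carrier of glutamate with protons, stood at 6.09, 16.0, 17.98 and 17.2 FPKM in KO replicates 1 to 4, against 9.78, 4.47, 9.4998 and 9.93 FPKM in WT replicates 1 to 4. KO replicate 1 lay below 3 of the 4 WT libraries and the other KO libraries above all of them (log2 fold change 0.68, SE 0.37, limma adjusted p = 0.561). Without KO replicate 1 the log2 fold change was 1.04 (limma adjusted p = 0.131). The citrate carrier Slc25a1 and the dicarboxylate carrier Slc25a10, known for supplying fat synthesis, showed another pattern. Slc25a1 stood at 28.2, 20.4, 19.2 and 10.8 FPKM in KO replicates 1 to 4, against 19.7, 24.4, 10.8 and 21.4 FPKM in WT replicates 1 to 4. Slc25a10 stood at 13.3, 10.6, 7.37 and 6.83 FPKM in KO replicates 1 to 4, against 8.97, 14.1, 5.71 and 10.9 FPKM in WT replicates 1 to 4. Both were lowest of their group in KO replicate 4 and WT replicate 3, and the groups overlapped. The summed FPKM of 6 adipocyte markers, mostly Cfd, was 283 to 456 in KO and 326 to 429 in WT. It was 283 in KO replicate 4 and 429 in WT replicate 3. The markers differed. Plin1 (4.95 and 11.6 FPKM) and Retn (24.4 and 30.4 FPKM) were lowest of their group in KO replicate 4 and WT replicate 3. Adipoq, Cidec, Lep and Cfd were not lowest in WT replicate 3. The part of adipocytes in these carriers was not tested.

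The group listed for fatty acid and branched-chain fuel had 4 members, 0 past the threshold and 2 above 0 (median 0.11). Slc25a47 and Slc25a45 stand in it by the grouping used, and no substrate is claimed for them here. Slc25a20, which brings acylcarnitines into the matrix, stood at 52.2, 68.7, 65.2 and 70.9 FPKM in KO replicates 1 to 4, against 49.3, 52.7, 57.4 and 59.6 FPKM in WT replicates 1 to 4. Again KO replicates 2 to 4 lay above all WT libraries and KO replicate 1 did not (log2 fold change 0.22, SE 0.11, limma adjusted p = 0.531; 0.32 and 0.138 without KO replicate 1). Slc25a47, known from liver, stood at 3.47, 5.06, 3.84 and 3.92 FPKM in KO, against 3.33, 2.97, 2.95 and 3.43 FPKM in WT, without overlap (log2 fold change 0.31, SE 0.12, limma adjusted p = 0.440). Slc25a44, a carrier of branched-chain amino acids, averaged 13.6 ± 1.06 FPKM in KO and 13.6 ± 0.855 FPKM in WT (SD, n = 4 each). Slc25a45 stood at 1.17 to 2.56 FPKM in KO and 1.34 to 2.23 FPKM in WT.

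The 3 amino acid carriers all lay above 0, as did 54.4% of all tested genes, and 0 passed (median 0.12). After rescaling to TPM only Slc25a29 of them lay above 0. The ornithine carrier Slc25a15 had the smallest SD within groups of all members, 0.05 on the log2 scale, at 7.20 ± 0.256 FPKM in KO and 6.92 ± 0.257 FPKM in WT (SD, n = 4 each). Slc25a29, a carrier of basic amino acids, stood at 9.31, 8.03, 8.12 and 11.0001 FPKM in KO replicates 1 to 4, against 8.31, 7.48, 8.41 and 5.69 FPKM in WT replicates 1 to 4, with overlap (log2 fold change 0.27, limma adjusted p = 0.551). The glycine carrier Slc25a38, needed for haem in red cells, stood at 11.2 to 12.3 FPKM in KO and 10.2 to 12.4 FPKM in WT. The summed FPKM of 6 erythroid markers was 653 to 3172 in KO and 509 to 1334 in WT, highest in KO replicate 1, and their part in Slc25a38 and Slc25a37 was not tested.

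Among 9 carriers of cofactors and nucleotides 0 passed and 4 lay above 0 (median -0.05). Slc25a42, a carrier of coenzyme A, stood at 17.5, 26.8, 20.97 and 21.3 FPKM in KO replicates 1 to 4, against 17.4, 14.4, 18.3 and 20.1 FPKM in WT replicates 1 to 4 (log2 fold change 0.29, SE 0.14, limma adjusted p = 0.526). Slc25a26, which brings in S-adenosylmethionine, stood at 23.1, 25.2, 26.0 and 23.6 FPKM in KO, against 20.9, 21.1, 22.3 and 23.2 FPKM in WT (log2 fold change 0.16, SE 0.07, limma adjusted p = 0.481; -0.05 after rescaling to TPM). In both carriers KO replicate 1 lay within the WT range and the other KO libraries above it. The NAD carrier Slc25a51 was among the steadiest, at 32.7, 30.6, 31.8 and 31.1 FPKM in KO, against 32.8, 31.8, 32.7 and 35.4 FPKM in WT (log2 fold change -0.07, limma adjusted p = 0.733). Slc25a16, linked to coenzyme A, stood in KO at 19.2 to 20.95 FPKM, against 19.5 to 21.8 FPKM in WT, and the pyrimidine nucleotide carrier Slc25a33 stood at 10.4 to 12.1 FPKM in KO and 10.2 to 14.4 FPKM in WT.

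The 5 carriers with the smallest p among those below 0 were Slc25a32, Slc25a36, Slc25a24, Slc25a51 and Slc25a17. Slc25a32, of folate and FAD, stood at 4.67, 4.59, 4.25 and 5.52 FPKM in KO replicates 1 to 4, against 5.69, 5.05, 5.27 and 4.98 FPKM in WT replicates 1 to 4 (log2 fold change -0.13, limma adjusted p = 0.690). The pyrimidine nucleotide carrier Slc25a36 stood at 11.2, 13.2, 9.13 and 13.7 FPKM in KO replicates 1 to 4, against 14.99, 10.4, 18.2 and 12.7 FPKM in WT replicates 1 to 4 (log2 fold change -0.23, limma adjusted p = 0.717). Slc25a17, which sits in the membrane of peroxisomes and not of mitochondria, stood at 10.8, 9.69, 7.81 and 10.2 FPKM in KO replicates 1 to 4, against 13.1, 8.93, 9.76 and 11.4 FPKM in WT replicates 1 to 4 (-0.15, limma adjusted p = 0.752). The ATP-Mg carrier Slc25a24 stood at 3.55, 3.73, 3.83 and 5.09 FPKM in KO replicates 1 to 4, against 4.22, 3.94, 5.30 and 4.93 FPKM in WT replicates 1 to 4 (-0.17, limma adjusted p = 0.727). In each of these 5 the groups overlapped.

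Of the 4 iron and glutathione carriers 0 passed and 2 lay above 0 (median 0.01). The glutathione carrier Slc25a39 stood at 52.2, 51.7, 48.0 and 50.0 FPKM in KO replicates 1 to 4, against 40.9, 49.8, 48.3 and 44.1 FPKM in WT replicates 1 to 4 (log2 fold change 0.14, limma adjusted p = 0.558; -0.07 after rescaling to TPM). The mitoferrins, which import iron for haem and iron-sulfur clusters, were overlapping between the groups, with Slc25a28 at 16.8 to 19.5 FPKM in KO and 15.9 to 20.9 FPKM in WT. Slc25a37 stood at 5.54 to 7.25 FPKM in KO and 5.01 to 7.07 FPKM in WT. Slc25a40, the second glutathione carrier, stood at 1.85 to 2.84 FPKM in KO and 2.41 to 2.90 FPKM in WT. Slc25a37 and Slc25a30 lie on chromosome 14, as does Mss51. The 3 carriers like uncoupling proteins, Slc25a30, Slc25a14 and Slc25a27, summed to 5.87 to 9.03 FPKM in KO and 6.88 to 7.14 FPKM in WT.

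The group listed for no settled substrate or the outer membrane held Slc25a34, Slc25a35 and Slc25a46. All 3 lay above 0, as did 54.4% of all tested genes, and 0 passed (median 0.11). After rescaling to TPM only Slc25a34 of them lay above 0. Slc25a34 stood at 4.39, 13.8, 15.2 and 14.04 FPKM in KO replicates 1 to 4, against 7.10, 3.58, 6.38 and 8.45 FPKM in WT replicates 1 to 4. KO replicate 1 lay below 3 of the 4 WT libraries and the other KO libraries above all of them (log2 fold change 0.76, SE 0.39, limma adjusted p = 0.540; 1.17 and 0.0885 without KO replicate 1). Slc25a35 stood at 4.03 to 5.66 FPKM in KO and 2.81 to 5.04 FPKM in WT, and its exons overlap those of Rangrf on the opposite strand by 1151 bases. Slc25a46, which acts in mitochondrial division at the outer membrane, stood at 18.5 to 21.3 FPKM in KO and 17.6 to 21.04 FPKM in WT.

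Exactly 3 of the 4 libraries labelled KO lay above every library labelled WT in 9 carriers, or 23.7%, against 10.1% of all tested genes. This count was chosen after the values were seen. With 3 below every WT library there were 2 carriers, or 5.26%, against 6.76% of all tested genes. In 7 of the 9 the KO library inside the WT range was KO replicate 1, which was also the one inside for 54.0% of all genes with that pattern. These 7 were Slc25a3, Slc25a20, Slc25a26, Slc25a42, Slc25a22, Slc25a34 and Slc25a13. Without Slc25a13 the counts were 8 of 37 carriers (21.6%), and KO replicate 1 was the one inside in 6 of the 8. For Slc25a39 it was KO replicate 3.

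Of the 10 markers of slow and oxidative fibres, 5 split the libraries labelled KO in the same way and 5 did not. Among the 5 that did, Myh2, the myosin of fast oxidative fibres, stood at 125, 494, 447 and 391 FPKM in KO replicates 1 to 4, against 127, 96.6, 141 and 156 FPKM in WT replicates 1 to 4. Myoglobin, Mb, stood at 1838, 4704, 3645 and 4010.3 FPKM in KO, against 1624, 1695, 1686 and 1937 FPKM in WT. Among the 5 that did not, Myh7, the slow myosin, stood at 27.1, 29.9, 36.4 and 26.4 FPKM in KO replicates 1 to 4, against 30.5, 23.04, 41.5 and 33.9 FPKM in WT replicates 1 to 4, in an entry joined with Myh6. Tnnt1, a slow troponin, stood at 89.96, 90.2, 141 and 95.2 FPKM in KO, against 73.2, 64.03, 96.4 and 91.8 FPKM in WT. In both of these the groups overlapped. The part of fibre type in the levels of the carriers was not tested, and in whole muscle more fibres of a type and more RNA per fibre cannot be told apart. Without KO replicate 1, limma called 2 of the 38 carriers higher (Slc25a3 and Slc25a11) and 0 lower, against 0.951% and 0.101% of all tested genes.

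**Figure D4:**
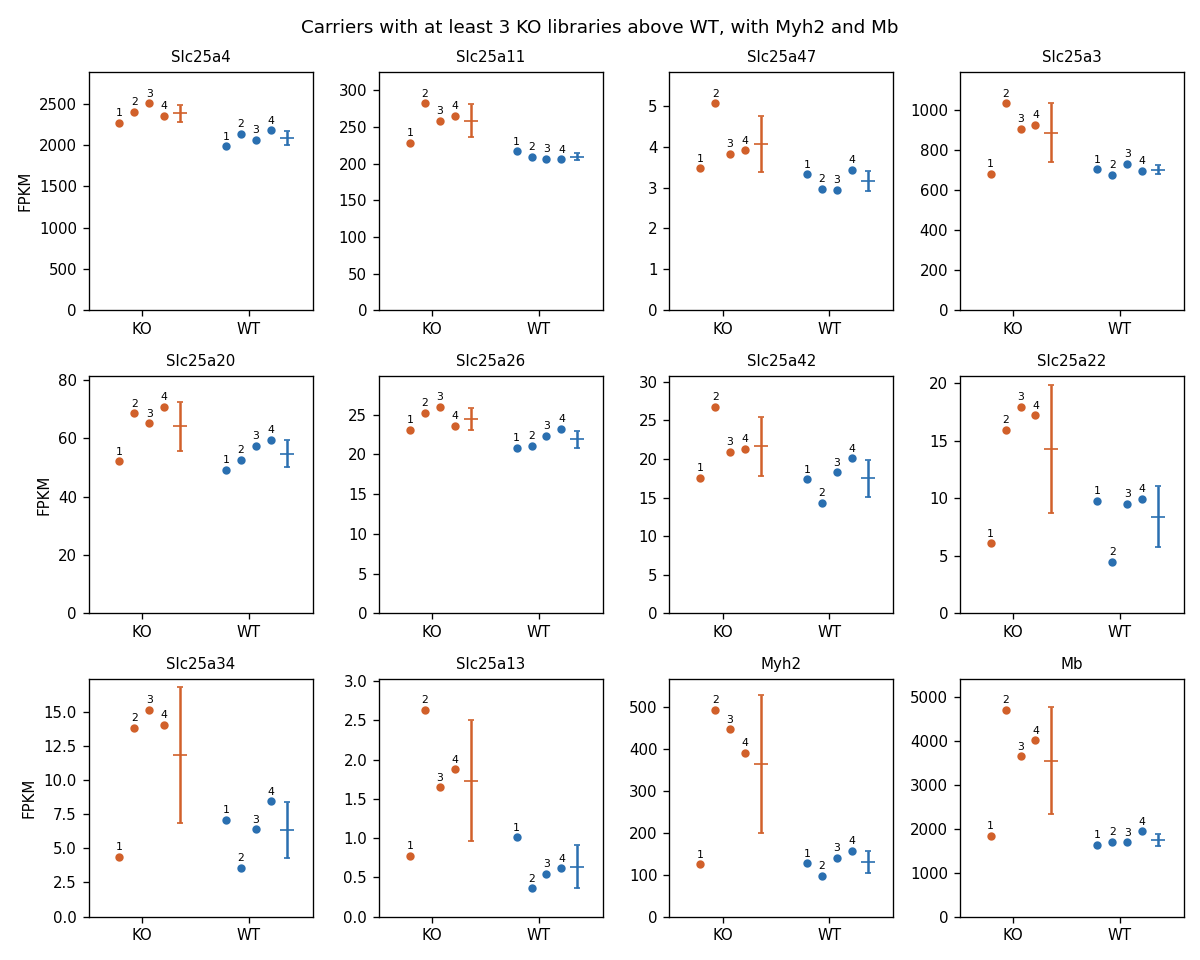
FPKM by library (y axes from 0) of the 3 carriers without overlap (Slc25a4, Slc25a11, Slc25a47), of the 7 in which KO replicates 2 to 4 lie above WT, and of Myh2 and Mb (orange: KO, blue: WT; small digits: replicate; bars: mean and SD, n = 4). KO replicate 1 sits with the WT libraries in Slc25a3, Slc25a22, Slc25a34, Myh2 and Mb, and above them in Slc25a4 and Slc25a11.

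Ratios of related carriers within a library were compared for 8 pairs. The difference in mean log2 ratio, taken on FPKM + 0.5, was tested two-sided by exact permutation of the labels (70 assignments), and ratios printed here are of the plain FPKM. The smallest possible p is 0.0286, and a pair that reached it alone would have an adjusted p of 0.229 over the 8 pairs, so no single pair could pass. In this design 0 passed, which says little, and 0 had an unadjusted exact p under 0.05. Slc25a4 over Slc25a5 was 38.1 to 47.3 in KO and 33.0 to 48.9 in WT (log2 difference 0.06, exact p = 0.686, adjusted p = 0.714), so the muscle form of the ADP/ATP carrier was the higher in every library. Slc25a12 over Slc25a13 was 318, 95.3, 137 and 126 in KO replicates 1 to 4, against 231, 678, 429 and 409 in WT replicates 1 to 4 (log2 difference -0.94). Since Slc25a13 was kept through its KO values, this pair is a description and no p is given for it. Slc25a39 over Slc25a40 was 17.6 to 26.0 in KO and 16.6 to 20.5 in WT (log2 difference 0.27, exact p = 0.0857, adjusted p = 0.343). That adjusted p counts the pair Slc25a12/Slc25a13 in its ranking and would be larger without it. For the other 5 pairs the exact p ran from 0.257 to 0.714.

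**Figure D5:**
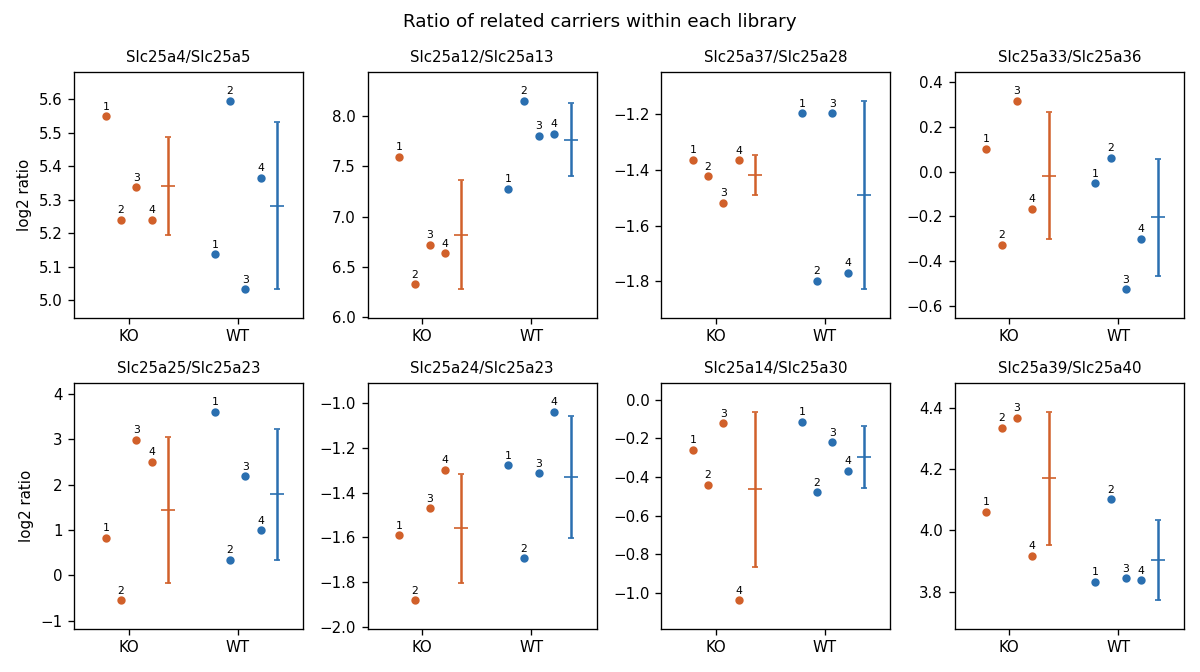
Log2 ratio of 8 pairs of related carriers in each library (on FPKM + 0.5; y axes differ between panels and do not start at 0; orange: KO, blue: WT; small digits: replicate; bars: mean and SD, n = 4). The groups overlap in every panel. In Slc25a4/Slc25a5 the plain ratio is 38.1 to 47.3 in KO and 33.0 to 48.9 in WT.

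Proteins of the same fold under other symbols gave 0 calls among 4 tested (3 above 0, where 54.4% of all tested genes lay above 0). The members with the smallest p were Mtch2, an outer membrane insertase (log2 fold change 0.07, limma adjusted p = 0.809), and the muscle uncoupling protein Ucp3. Ucp3 stood at 36.8, 108, 107 and 79.9 FPKM in KO replicates 1 to 4, against 57.7, 39.6, 72.9 and 97.7 FPKM in WT replicates 1 to 4 (0.26, limma adjusted p = 0.849).

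The enzymes that work with the carriers also gave 0 calls. All 4 enzymes of the malate-aspartate shuttle lay above 0, as did 54.4% of all tested genes (median 0.35, limma adjusted p = 0.347 to 0.424). At an unadjusted p under 0.05 in limma all 4 were higher in KO, as were 7.5% of all tested genes. The list was not tested as a set. Mdh1, the cytosolic malate dehydrogenase, stood at 357, 628, 520 and 551 FPKM in KO replicates 1 to 4, against 352, 337, 347 and 336 FPKM in WT replicates 1 to 4 (0.55, limma adjusted p = 0.347). Mdh2, its mitochondrial counterpart, stood at 584 to 772 FPKM in KO and 552 to 576 FPKM in WT (0.27, limma adjusted p = 0.375). These 2 of the 4 had no overlap between the groups, KO above, as had 3.89% of all tested genes. KO replicate 1 was the lowest of its group in both, as in Slc25a11.

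The 4 carnitine shuttle enzymes lay above 0 as well (median 0.21), with the smallest adjusted p for Cpt2 (0.24, limma adjusted p = 0.491) and for Cpt1b, joined with Chkb in the files (0.23, limma adjusted p = 0.540). Of 20 other tested transport proteins of mitochondrial membranes 0 passed and 15 lay above 0 (median 0.14), against 54.4% of all tested genes. An unadjusted p under 0.05 in limma was found for 6 of these 20, all higher in KO, and for 0 of the 4 carnitine shuttle enzymes. Of all tested genes 7.5% were higher and 2.76% lower at that p. These lists were not tested as sets. The smallest p were those of the sodium/calcium exchanger Slc8b1 (0.40, limma adjusted p = 0.353) and of Letm1, a cation exchanger (0.28, limma adjusted p = 0.388).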

How the data were processed

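Per the labels, RNA of 8 quadriceps muscles was taken up in TRIzol, enriched on oligo(dT) beads, cleared of ribosomal RNA and sequenced as paired ends. The authors deposited 1 table of FPKM per library, per the file headers. Cufflinks 2.2.1, TopHat2 2.1.1 and Bowtie2 2.2.6 stand in the submitters' processing notes, with FastQC and the build mm10, and no role is stated for any. The gene models, filters and strand setting are not given in the sources used here, and 12 of the 38 carriers have exons that overlap another gene in GENCODE M21.

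The files hold no counts, so no counting interval is given. Depth was estimated from single-transcript genes over 1500 bases, as the median implied by values worth 1 fragment within 32 to 80 M. Of 46036 entries, 2379 without a name were left out (65.8% to 93.2% of summed FPKM). Where a name repeats, the entry with the highest mean was used. The 11878 names with a mean of at least 1 FPKM were fitted with limma 3.58.1 in R 4.3.3 (genotype alone, variances with a mean trend, two-sided, pseudocount 0.5, threshold 0.05). The fit was tested on simulated data. Genes named with values are the 10 highest, those past the threshold, the 5 smallest p in each direction and those near the minimum, with others in their role group. Slc25a1, Slc25a10, Slc25a22, Slc25a34, Slc25a42 and other carriers outside this rule were chosen after their values were seen. The counts cover all 38 carriers, and 1 of them is not reported here by name. Members, lists and tests were chosen with earlier results of these data known. Python 3.11.15 was used for the exact tests. Copies were sought with blastn among GENCODE M21 transcripts.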

Additional observations from a re-analysis of the deposited data

Results flagged for a closer look

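A library far from the others of its group by Dixon's ratio of gap to range was found 7 times among 76 groups of 4 values, and chance alone gives this in about 5% of groups. In 4 of the 7 it was KO replicate 1. It was the lowest KO library for Slc25a5 (48.0 FPKM, others 61.4 to 63.0), Slc25a22 (6.09 FPKM, others 16.0 to 17.98) and Slc25a34 (4.39 FPKM, others 13.8 to 15.2), and the highest for Slc25a30 (3.41 FPKM, others 2.92 to 3.001). WT replicate 1 was the highest WT library for Slc25a16 (21.8 FPKM, others 19.5 to 19.6) and Slc25a38 (12.4 FPKM, others 10.2 to 10.4). WT replicate 2 was the lowest for Slc25a22 (4.47 FPKM, others 9.4998 to 9.93).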

How the results depend on the processing

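Under pseudocounts of 0.1 and 1, other filters, scalings and variance fits, the number of carriers past the threshold stayed at 0, and leaving out each library in turn gave 0 to 2. It was 2 only without KO replicate 1, and again 2 when that library was left out with a model term for the libraries with Tnnt3 listed at 0, a setting chosen after seeing the data; that term alone gave 0. The count over all tested genes was 6, and 114 after rescaling to TPM, 140 with the Tnnt3 term and without KO replicate 1, and 4 to 125 over single libraries left out. With the replicate number as a block it was 0 (958 at an unadjusted p under 0.05), and 0 carriers passed (4 unadjusted). Same-numbered libraries did not deviate together (correlations -0.08 to 0.01), and the numbers are used here to name libraries only. Low correlations do not show that libraries shared no batch. Paralog ratios gave 0 passing pairs in every setting, including the block and leave-one-out, where no single pair could pass.

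Signs turned in the following. After rescaling to TPM, Slc25a4 was at -0.0257, Slc25a5 at -0.0825, Slc25a39 at -0.0694 and Slc25a26 at -0.0508, and Slc25a4 was at -0.0265 with quantile normalization. The SE of these carriers was 0.405 to 0.433 after rescaling to TPM, against 0.0686 to 0.128 in the main fit, so these TPM signs are not settled. Slc25a12 ran between -0.0289 and 0.0214 and Slc25a25 between -0.75 and 0.303 over single libraries left out. Over the same, the log2 ratio differences ran from -0.0241 to 0.164 for Slc25a4/Slc25a5, -0.0301 to 0.171 for Slc25a37/Slc25a28, -0.862 to 0.316 for Slc25a25/Slc25a23 and -0.283 to 0.0226 for Slc25a14/Slc25a30. The cause was not tested. The depth limits the carriers near 1 FPKM most.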

Other observations

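Ucp1, the uncoupling protein of brown fat, was below the minimum, at 0, 0.804, 0.0131 and 0.0285 FPKM in KO replicates 1 to 4, against 0, 1.19, 0.588 and 2.36 FPKM in WT replicates 1 to 4. Slc25a53 stood at 0.413 to 1.35 FPKM in KO and 0.541 to 1.79 FPKM in WT. Slc25a21, the oxoadipate carrier, stood at 0.0156 to 0.127 FPKM in KO and 0.0809 to 0.192 FPKM in WT. Slc25a31 was listed at 0 in 3 libraries, Slc25a18 in 4 and Slc25a41 in 6, in both groups each.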
